A study of Cornus officinalis with 7 samples.

Results

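A set of 200 unigenes was abundant in the seed of *Cornus officinalis* and low or absent in 5 other tissues of the plant. Unigenes are the assembled transcripts of a species without a reference genome, and 304371 of them were measured. The members were chosen by their own expression values. A unigene qualified when its FPKM (fragments per unit of unigene length and of sequencing depth) in each of young leaf, mature leaf, young stem, pericarp and inflorescence lay below 10% of its seed FPKM. The 200 qualifying unigenes with the highest seed FPKM were taken, which is 0.0657% of all unigenes and 0.137% of the 146245 with a seed FPKM above 0. The mature stem library was ignored by this rule. The values in seed and in the 5 other tissues are therefore a description of the choice, and no test is attached to them.

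All 7 tissues came from untreated *C. officinalis*, labelled as 12 years old and as 1 plant material, grown outdoors in a medicinal garden. RNA was sequenced from seed, young leaf, mature leaf, young stem, pericarp, inflorescence and mature stem, with 1 strand-specific library per tissue. Differences between tissues thus have no replicate check, no SD can be given, and unigenes are not used as replicates for a p-value. In whole tissues, a lower value can come from fewer cells of a type or from less RNA per cell, and these cannot be told apart. The developmental stage of the seed is not given in the sources used here.

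Seeds store carbon, nitrogen and lipid for the seedling. In well studied flowering plants, a maturing seed devotes much of its mRNA to a small number of products, among them storage proteins, proteins that coat oil bodies and proteins that protect cells during drying. These genes are usually shut off in vegetative organs. The pericarp is the fruit wall that surrounds the seed and is maternal tissue, whereas the embryo inside the seed is the next generation. None of the leading unigenes described here carries a gene name in the sources used, so none is assigned to any of these products, and the tissue label of the seed library was not checked against marker genes.

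Summed over unigenes, FPKM came to 888653 in seed. The lowest sum of the 7 libraries was 876794, in young stem, and the highest 992186, in mature stem. FPKM holds no read counts, so the depth behind a value is not known. The most frequent ratio of values, over unigenes above 0 in exactly 2 libraries, was taken as the relative worth of 1 fragment. Compared with young stem it was 1.06 times in seed, 1.15 times in both leaf stages, 1.47 times in pericarp and 1.74 times in inflorescence. The fullest bin of ratios held between 17.5% of the unigenes, in inflorescence, and 32.4%, in young leaf. By this estimate, young stem and seed were the deepest of these libraries. In mature stem no common ratio was found, with 1.13% of 619 unigenes in the fullest bin. A value of 0 is described as listed at 0, since it can also be a failed estimate.

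The mature stem library stood apart from the rest. Of the unigenes above 0 in seed, 6.06% were also above 0 in mature stem, beside 73.4% that were also above 0 in young stem. Of the 70055 unigenes above 0 in mature stem, 80.6% were listed at 0 in the other 6 libraries. Of the 52550 unigenes above 0 in all 6, 88.6% were listed at 0 in mature stem. Whether this library represents its labelled tissue was not tested, and every mature stem value carries that doubt. The choice of the members did not use it.

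The 200 members held 10.2% of the whole seed FPKM sum, at 90972 of 888653 FPKM. Their seed FPKM ranged between 34.3 and 12606, with a median of 105. The 8 highest unigenes held 50.1% of the members' seed FPKM and 5.13% of the seed total. The 3 highest alone held 33.2% of the members' sum, the 20 highest 66.8% and the 100 highest 93.6%. The set was thus a short list of very abundant transcripts followed by a long tail.

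At any level, 10750 unigenes met the 10% rule, or 7.35% of those with a seed FPKM above 0. Most were scarce, with a median seed FPKM of 1.7, and 92.3% of them were listed at 0 in all 5 other tissues, which at such levels few fragments can decide. Among the 200 members this share was 16.5%. Together the 10750 unigenes held 13.1% of the seed sum, and 78.0% of that amount lay on the 200 members. Among the 3681 unigenes with a seed FPKM at least as high as the last member, 5.43% met the rule. The share was far from even along the ranking of seed FPKM: members made up 5 of the 10 highest unigenes in seed, 9 of the highest 20, 19 of the highest 50, 30 of the highest 100, 47 of the highest 200 and 101 of the highest 1000. The rule and this ranking use the same seed values, so the rise toward the top describes the choice and was not tested. The other 3481 unigenes of this range, which failed the rule, held 44.6% of the seed sum.

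Unigene042433 was the most abundant transcript of the seed library, at an FPKM of 12606. Outside seed it reached 1.22 in young stem, 0.53 in pericarp and 0.40 in young leaf, with 0 listed for mature leaf, inflorescence and mature stem. Unigene222074 had 9578 in seed and 0.18 in mature leaf, and was listed at 0 in the other 5 libraries. Together with Unigene266284, at 8053 in seed, 0.07 in mature leaf and 0.12 in young stem, these were the leading 3 unigenes of the whole seed library. Each was very abundant in seed, and its highest value in any other library was 1.22 or less, in a table written in steps of 0.01.

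The next 5 members had the same form. Unigene263457 had an FPKM of 4291 in seed and 0.16 in young stem, with 0 listed in every other library. Unigene273232 had 3427 in seed and 0.12 in mature leaf, again with 0 elsewhere. Unigene303493 and Unigene303492, which carry consecutive identifiers, had 2870.3 and 2835 in seed, and their highest values outside it were 0.18 and 0.35 in inflorescence. Unigene047382 had 1961 in seed, 0.12 in inflorescence and 0.08 in young stem. For these 8 unigenes the highest value in any other tissue was 0.0124% of the seed value. Their ratios of seed to the second tissue lay between 8100 and 67112, but the lower value of each ratio is a trace that few fragments may carry, so the ratios are rough.

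Below them the members became more varied. Unigene119049 had an FPKM of 1795 in seed, 11.9 in inflorescence and 3.34 in young stem, with 0 listed for both leaves, pericarp and mature stem. Unigene110057, at 1540.1 in seed, was listed at 0 in all other 6 libraries, as was Unigene031185 at 1193. Unigene186141 had 1411 in seed and 11.7 in young stem, with 0.40 or less elsewhere. Unigene034810 had 1322 in seed and 14.9 in pericarp and was listed at 0 in the rest. Unigene291547 was of another kind: its 1298 in seed stood beside 70.6 in young stem, 61.4 in mature leaf, 46.6 in pericarp, 38.4 in young leaf and 2.35 in inflorescence. Unigene289793, the last of the 15 highest, had 1180.0 in seed, 20.4 in pericarp and 6.41 in inflorescence.

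**Figure D1:**
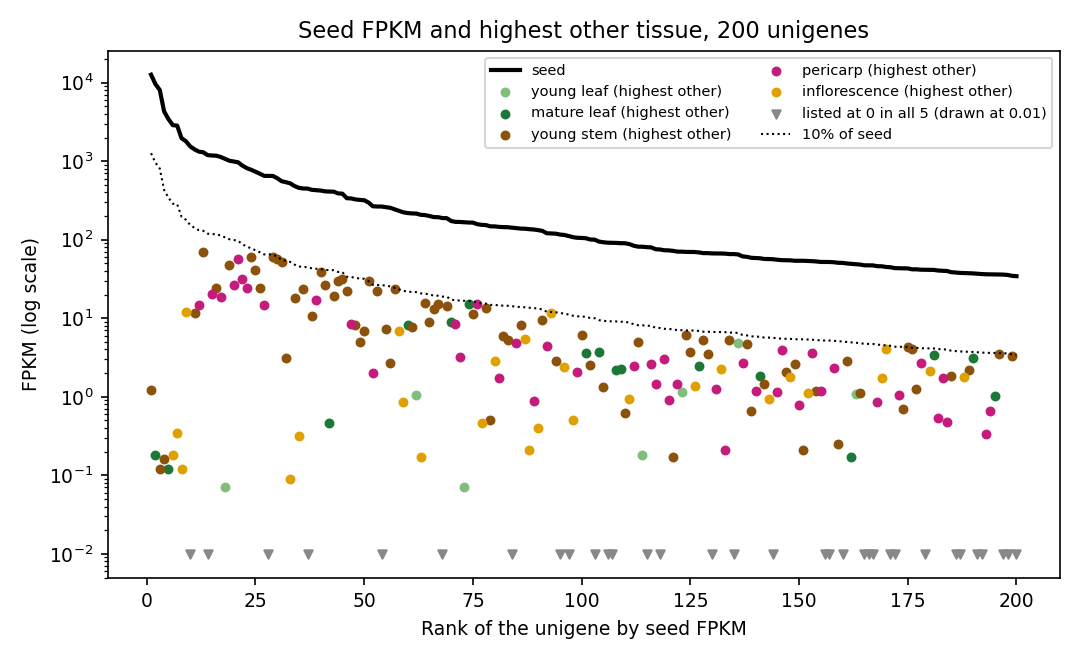
The black line gives the seed FPKM of the 200 unigenes in order of rank, and each point the FPKM in the highest of the 5 other tissues, coloured by that tissue, on a log axis. Grey triangles mark the 33 unigenes listed at 0 in all 5, and the dotted line is the 10% limit of the rule. The 8 highest unigenes have points at an FPKM of 1.22 or less, well under the points of most that follow.

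Steepness was measured as the FPKM of the highest other tissue in percent of seed. It was 0 for 33 members, above 0 and up to 0.1% for 13, between 0.1% and 1% for 21, between 1% and 5% for 83 and between 5% and 10% for 50. These bands were chosen after the values had been seen. The 13 members of the second band held 52.8% of the members' seed sum, with a median seed FPKM of 2835, and 11 of them were among the 50 highest members. The 33 members listed at 0 elsewhere held 6.55% of the sum and had a median of 56.4, with 16 of them among the 50 lowest members. The 50 members closest to the limit held 13.2% of the sum, with a median of 146. The median percentage was 2.22% in the highest 50 members, 3.17% in the next 50, 2.24% in the third and 1.96% in the lowest 50. These medians are not fully comparable. A listed 0 counts as the steepest, and it was listed for 16 of the lowest 50 against 4 of the highest 50. The same percentage is also a lower FPKM, nearer to 0, in a member with less seed FPKM.

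Below 1% of seed in every one of the 5 other tissues were 67 members, against a share of 1.82% among all 3681 unigenes of that range of seed FPKM, which is the same 67 unigenes. On the log2(FPKM + 1) scale, seed exceeded the second tissue by a median of 4.82, with a range between 3.03 and 12.99. Over the 167 members with a second tissue above 0, the median ratio of seed to second tissue was 33.8, and the median FPKM in the second tissue was 2.83. In 38 of the 167 the second tissue had an FPKM below 1.

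**Figure D2:**
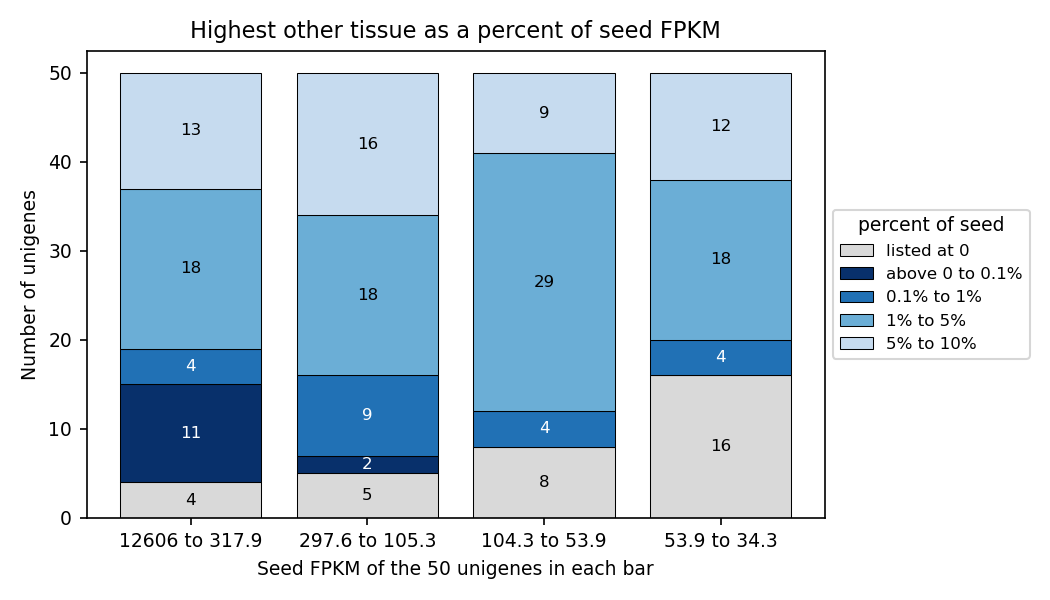
Each bar holds 50 of the 200 unigenes, ordered by seed FPKM with the highest on the left, and its segments count the unigenes by the FPKM of the highest other tissue in percent of seed FPKM. The darkest segment, above 0 to 0.1%, holds 11 unigenes in the highest bar and 2 in the next, and the grey segment of unigenes listed at 0 is largest, at 16, in the lowest bar.

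Young stem was the second tissue of 74 members, pericarp of 43, inflorescence of 27, mature leaf of 16 and young leaf of 7. A single member, Unigene266760, had equal values of 1.07 in young leaf and young stem and was counted under young leaf. Counting only members whose second tissue reached an FPKM of 1, young stem had 65, pericarp 34, inflorescence 14, mature leaf 12 and young leaf 4. Young stem made up 44.3% of the 167 members with a second tissue above 0, beside 35.6% of the unigenes of that kind at any seed level. Young stem is also the deepest library of those whose depth could be compared, and its part in these counts was not tested.

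The members with young stem second were the less steep ones. Their median FPKM was 176 in seed, 5.98 in young stem, 2.46 in pericarp, 1.19 in young leaf, 0.62 in mature leaf and 0.34 in inflorescence. They supplied 37 of the 50 members between 5% and 10% of seed, although the most abundant of the 74 were the very steep Unigene042433, Unigene266284 and Unigene263457. The order of young stem, young leaf and mature leaf often repeated itself. Of the 74, 49 had a higher FPKM in young leaf than in mature leaf, 17 had the reverse, and 8 were listed at 0 in both. Over all 200 members the leaf stages were nearly even, with 71 higher in young leaf, 58 higher in mature leaf and 71 equal.

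Pericarp, the tissue next to the seed in the fruit, gave a narrower picture. It was above 0 for 129 members, and in these its FPKM had a median of 1.88% of seed, with quartiles at 1.20% and 3.18%, a ratio of 2.64 between them. That ratio of quartiles was 6.21 in mature leaf, 6.55 in inflorescence, 10.5 in young leaf and 11.9 in young stem. The rule keeps every value below 10% of seed, and each ratio covers only the members above 0 in its tissue. These members and the worth of 1 fragment differ between tissues, and the part of this was not tested. Pericarp reached 1% of seed in 103 members, more than the 88 of young stem, but reached 5% in 10 members, compared with 40 in young stem. The pericarp values did not follow seed abundance at the top of the list, and those of the other tissues did not either. Among the 8 highest members, pericarp was at most 0.0042% of seed. The highest was 0.0032% in young leaf, 0.0035% in mature leaf, 0.0097% in young stem and 0.0124% in inflorescence. Of the 10 highest members, 8 were listed at 0 in pericarp. Above 0 were 2 in pericarp, 1 in young leaf, 4 in mature leaf, 4 in inflorescence and 7 in young stem. Those with pericarp second were led by Unigene034810, Unigene289793 and Unigene188420, the last of which had 1131 in seed, 18.5 in pericarp and 0.05 in each leaf stage.

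Inflorescence was second for 27 members with a median seed FPKM of 132 and a median of 1.11 in inflorescence. Unigene303493, Unigene303492 and Unigene047382 led this group with trace values, and Unigene119049 with 11.9 was its first member above an FPKM of 1. Mature leaf was second for 16 members and was led by Unigene222074, Unigene273232 and Unigene118244, which had 409.7 in seed, 0.46 in mature leaf and 0.24 in young leaf. Young leaf was second for 7. Unigene107108 had 1069.7 in seed and 0.07 in young leaf, Unigene119050 had 215 and 1.06, and Unigene035824 had 167 and 0.07, and all other libraries listed these 3 at 0. Of the 33 members listed at 0 in the 5 other tissues, Unigene110057, Unigene031185 and Unigene303746 were the highest, the last with 649 in seed.

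Breadth varied as well. Of the 200 members, 69 were above 0 in all 5 other tissues, 28 in 4 of them, 21 in 3, 24 in 2, 25 in 1 and 33 in none. Among the 50 highest members 21 were above 0 in all 5, and among the 50 lowest 10 were. The same percentage of seed is a lower FPKM in the lowest members, and the part of this was not tested. Unigene074345 is an example of a broadly detected member, with an FPKM of 1012.7 in seed, 48.1 in young stem, 36.8 in pericarp, 24.8 in mature leaf, 23.5 in young leaf and 19.0 in inflorescence, the highest inflorescence value of any member.

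**Figure D3:**
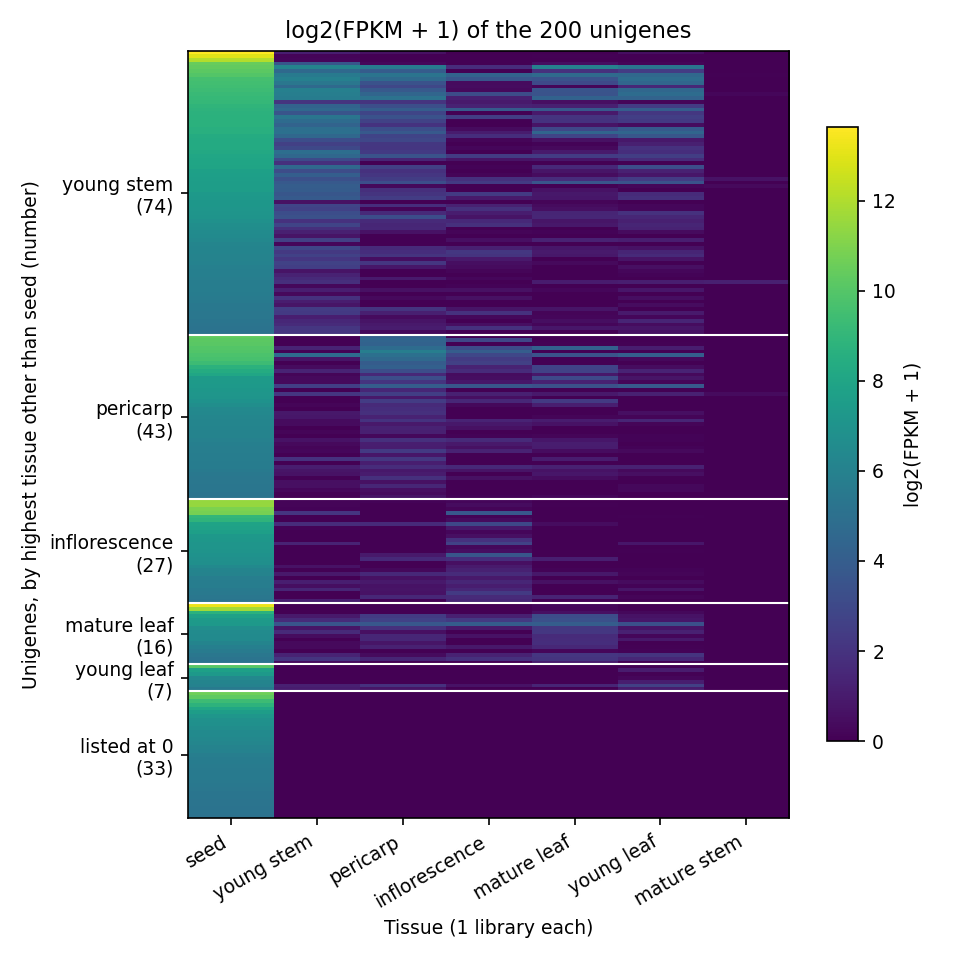
Colour gives log2(FPKM + 1) of each of the 200 unigenes (rows) in the 7 tissues (columns, 1 library each). Rows are grouped by the highest tissue other than seed, with 74 unigenes for young stem, 43 for pericarp, 27 for inflorescence, 16 for mature leaf, 7 for young leaf and 33 listed at 0, and run from high to low seed FPKM within a group. The seed column is bright throughout, the young stem group also shows signal in pericarp and the leaves, and the mature stem column is dark in nearly every row.

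Summed over all 200 members, expression outside seed was small. The sum was 90972 FPKM in seed, 1077 in young stem, 753 in pericarp, 402 in young leaf, 376 in mature leaf and 279 in inflorescence. This was 10.2% of the seed sum, 0.123% of the young stem sum, 0.0772% of the pericarp sum and 0.0296% of the inflorescence sum. The number of members above 0 was 130 in young stem, 129 in pericarp, 114 in young leaf and in inflorescence, and 106 in mature leaf.

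Mature stem took no part in the choice of members. It was listed at 0 for 194 of the 200 (97%), and the members summed to 2.79 FPKM there. Such a 0 was the rule in that library: it was listed for 93.9% of all unigenes above 0 in seed and for 88.7% of the 10750 that met the rule. The 6 exceptions were Unigene072826 with an FPKM of 53.9 in seed and 1.33 in mature stem, Unigene215529 with 200.5 and 0.59, Unigene140296 with 140.0 and 0.34, Unigene225281 with 193 and 0.27, Unigene078193 with 608 and 0.19, and Unigene074345 with 1012.7 and 0.07. The highest of these ratios was 2.47% of seed. No member came near the 10% limit in mature stem, so adding that library to the rule would have left the same 200 unigenes.

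Abundant unigenes outside the set were set beside the members, without a test. Of the 3481 unigenes that failed the rule in the same range of seed FPKM, 54.7% were listed at 0 in mature stem. The share varied with the number of tissues in which they failed the rule. It was 83.1% of the 160 unigenes that failed in exactly 1 tissue and 50.1% of the 2882 that failed in all 5. Among members it was 48 of the 50 highest, beside 27.8% of the 158 unigenes outside the rule at those seed levels, and 50 of the 50 lowest, beside 62.0% of 1428. Mature stem is a single library that shared few unigenes with the others and whose depth could not be read, and the part of these in the difference was not tested.

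Some scarce unigenes that met the rule were higher in mature stem than in seed, at 1146 of the 10750 (10.7%). Of all 146245 unigenes above 0 in seed, 6.06% were above 0 in mature stem at any level. How many of those exceeded their seed value was not counted. The 1146 had a median FPKM of 0.09 in seed, where few fragments can decide whether the rule is met, and 18.1 in mature stem. None exceeded 9.95 in seed, so none reached the level of the members.

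**Figure D4:**
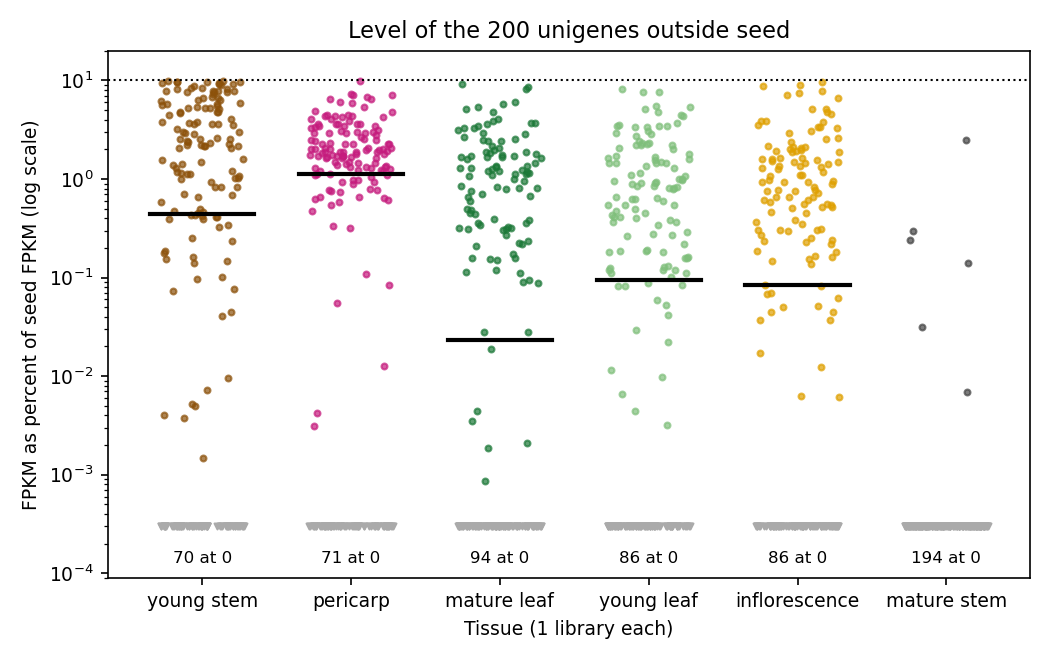
Each point is 1 of the 200 unigenes, placed by its FPKM in a tissue in percent of its seed FPKM on a log axis, with black bars at the median over all 200. Grey triangles are unigenes listed at 0, with their number beneath, and the dotted line is the 10% limit, which did not apply to mature stem. Pericarp points crowd between 1% and 5% and have the highest median, at 1.11%, young stem has 40 points at 5% or more, and mature stem has 6 points above 0.

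Gene names in the sources used are limited to 4 lists of enzymes of specialized metabolism, named by similarity to proteins of other species. Of the 200 members, 4 carried such a name, and all 4 were cytochrome P450s (CYPs), heme enzymes that oxidize many plant metabolites. CYP Unigene078193 had an FPKM of 608 in seed, 56.8 in young stem, 27.0 in young leaf, 20.9 in pericarp, 10.3 in mature leaf, 7.85 in inflorescence and 0.19 in mature stem. CYP Unigene288422 had 337 in seed, 22.4 in young stem and 11.4 in young leaf, and CYP Unigene174127 had 318 in seed, 6.87 in young stem, 3.46 in pericarp and 2.87 in young leaf. Young stem was second for all 3, which stood 10.7, 15.1 and 46.3 times higher in seed than in young stem. CYP Unigene036108 had 36.8 in seed and was listed at 0 in the other 6 libraries.

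The study kept a CYP in its list only above a minimum length and with an FPKM of at least 5 in some tissue. Shares in the list and over all unigenes, which had no such filters, are therefore not like for like. Of its 262 CYPs, 165 had a seed FPKM above 0 and 13 of these (7.88%) met the rule, beside 7.35% over all unigenes. At the seed level of the members or above were 14 CYPs, of which the 4 members met the rule, beside 5.43% of all unigenes at that level. Nothing is read from these shares. Next after the members came CYP Unigene235870, with an FPKM of 25.2 in seed and 2.09 in pericarp, and CYP Unigene077444, with 21.9 in seed and 0.20 in pericarp. The 4 lowest of the 13 had at most 0.06 in seed and reached an FPKM of 5 only in mature stem. Among them was Unigene289118 with 0.05 in seed and 216 in mature stem.

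No member was named for an enzyme of the main medicinal compounds, but few such unigenes were abundant enough in seed. The seed level of the members was reached by 5 unigenes named for triterpenoid enzymes, 6 for iridoid and 6 for gallotannin enzymes, and with 5.43% of all unigenes at that level meeting the rule, nothing is read from the absence. Of the 182 unigenes named for triterpenoid enzymes, 102 were above 0 in seed and 5 (4.90%) met the rule, beside 7.35% over all unigenes, led by Unigene159985 with an FPKM of 4.98 in seed, named AO (given as amyrin oxide), and by Unigene197879 with 3.99 and Unigene186244 with 1.5. Both of these are named as amyrin synthases, which cyclize the triterpenoid skeleton, and all 3 were listed at 0 in the rest. Of the 83 unigenes named for iridoid enzymes, 60 were above 0 in seed and 1 (1.67%) met the rule, the 7-deoxyloganetic acid glucosyltransferase Unigene061008 with 7.51 in seed and 0.32 in pericarp. This enzyme adds glucose to an iridoid intermediate. Of the 37 unigenes named for gallotannin enzymes, 21 were above 0 in seed and 1 (4.76%) met the rule, Unigene056888 with 2.24 in seed and 0 elsewhere. It is named as 3-deoxy-D-arabinoheptulosonate 7-phosphate synthase (DAHPS), the entry step of the shikimate pathway. The most abundant gallotannin unigene in seed, DAHPS Unigene070183, had 655 in seed but also 235 in young leaf, 234 in young stem and 174 in mature leaf, or 35.9% of seed in the highest, and so lay outside the rule.

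Some members had neighbouring identifiers. Grouping members whose identifier numbers differed by 3 or less gave 9 groups with 23 members and 15.6% of the members' seed sum. Such unigenes may be copies or fragments of related transcripts, between which the estimate of FPKM divides reads. How identifiers were numbered is not given in the sources used here, and the sequences were not used. The largest group had 7 members, from Unigene300404 to Unigene300414. Their seed FPKM lay between 36.1 in Unigene300414 and 335 in Unigene300406, and their second tissue was mature leaf for 5 and pericarp for 2, at 2.50% to 5.17% of seed. All 11 identifiers of that span were above 0 in seed and 10 of the 11 met the rule.

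Of the 8 pairs, 4 shared their second tissue. Unigene289792 and Unigene289793 had an FPKM of 649.8 and 1180.0 in seed, 14.8 and 20.4 in pericarp and 4.93 and 6.41 in inflorescence, and both were listed at 0 in the leaves and stems. Unigene295537 and Unigene295538 had 990.4 and 426 in seed, 26.7 and 17.3 in pericarp and 16.9 and 5.59 in mature leaf. The pair Unigene110057 and Unigene110058 differed: the first had 1540.1 in seed and was listed at 0 elsewhere, and the second had 52.8 in seed and values of 0.19 to 1.18 in all 5 other tissues.

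The 10% limit divided unigenes with nearly equal percentages of seed in their highest other tissue, although their profiles over the tissues differed. Just inside it were Unigene261874, with a second tissue at 9.97% of seed, Unigene294216 at 9.89%, Unigene033806 at 9.76%, Unigene299619 at 9.67% and Unigene100429 at 9.65%. Just outside were Unigene028864 at 10.03%, Unigene293420 at 10.1%, Unigene140056 at 10.4%, Unigene259462 at 10.5% and Unigene042838 at 10.6%. At the end of the ranking, the last 2 members, Unigene299619 and Unigene056314, had an FPKM of 34.6 and 34.3 in seed, and the next unigenes, Unigene266761 and Unigene075536, had 33.7 and 33.6.

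The 5 unigenes highest in seed that failed the rule were expressed broadly or in the fruit. Unigene099052 had an FPKM of 7553 in seed and between 4157 in young leaf and 9354 in inflorescence in the other 5 tissues of the rule, but 29.8 in mature stem. Unigene259514 had 5847 in seed and 15131 in pericarp, but also 3934 in mature leaf and 1306 in young leaf, with 327 in young stem. Unigene017093 had 2907 in seed and 5707 in inflorescence, with its lowest of the 5 at 1638 in young leaf. Unigene280060 had 2899 in seed and 2998 in pericarp, with its lowest of the 5 at 1411 in inflorescence. Unigene072456 had 3619 in seed and 2428 in pericarp but at most 166 in the others, and thus failed through pericarp alone.

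The same rule was applied to pericarp and inflorescence. It was met by 5.45% of the unigenes above 0 in pericarp and by 7.25% of those above 0 in inflorescence. The top 200 held 10.2% of the FPKM sum in seed, 3.56% in pericarp and 5.94% in inflorescence. The median FPKM of these sets in their own tissue was 105 in seed, 12.7 in pericarp and 83.4 in inflorescence. The 3 highest unigenes held 33.2% of the set's sum in seed, 80.9% in pericarp and 39.8% in inflorescence. Listed at 0 in the 5 other tissues were 33 of the 200 in seed, 137 in pericarp and 75 in inflorescence. The median difference on the log2(FPKM + 1) scale was 4.82 in seed, 3.57 in pericarp and 5.48 in inflorescence, and is limited by the lower levels of the pericarp set. Within the fruit, the seed members summed in pericarp to 0.828% of their seed sum. The pericarp set summed in seed to 5.90% of its pericarp sum. With 80.9% of the pericarp set's sum on 3 unigenes, the latter percentage depends mostly on those 3. Seed was the second tissue of 18 of the 200 unigenes in the pericarp set. With 1 library per tissue, none of these differences between the sets can be tested.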

How the data were processed

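According to the paper, the authors trimmed paired-end reads with Trimmomatic, joined 3 de novo assemblies, used CD-HIT-EST to remove redundant contigs, mapped the reads of every tissue back to the unigenes (Bowtie 2.0) and used RSEM for the FPKM estimates. In the submitters' processing notes, Trimmomatic and RSEM carry no version. Values of FPKM were used as deposited, and the table of all tissues held the same values as the 7 tissue tables. FPKM carries no counts, so count tests and count intervals do not apply, and with 1 library per tissue no test was run.

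The rule was applied to the 304371 unigenes, with ties by identifier. Differences are on log2(FPKM + 1), with a pseudocount of 1. The relative worth of 1 fragment is the most frequent ratio of values, in bins of 0.04 on the log2 scale, over unigenes above 0 in exactly 2 libraries. Enzyme names were taken from the study's supplementary lists.

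The members, bands and lists were chosen with earlier results of these data known. Named unigenes are the 15 highest members, those at the limits, the 3 highest for each second tissue, the 5 highest in mature stem, the steepest, the 5 highest outside the rule and those in the enzyme lists. Other named unigenes, among them the sixth in mature stem and those with neighbouring identifiers, were chosen after their values were seen. Alternatives covered the threshold, the size of the set, TPM (FPKM rescaled here to an equal sum), filters, pseudocounts and each tissue of the rule. The scripts were tested on simulated data and used Python 3.11.15, numpy 2.4.6, pandas 2.3.3 and matplotlib 3.10.9.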

Additional observations from a re-analysis of the deposited data

How the results depend on the processing

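The 6 summary values were recomputed under 74 combinations of a value and an alternative, and 67 stayed within 1.5 times of the values reported (for log2 differences, within that factor on the linear scale). With no replicates and no counts, no error could be estimated, and this factor is a chosen limit that measures none. Some alternatives could move little, since adding mature stem to the rule kept all 200 members. The share of the seed sum stayed between 6.83% (without the 3 highest members, an alternative added after seeing the data) and 12.9%, and the share of members listed at 0 in mature stem between 89.5% and 97.5%. Leaving young stem out of the rule raised the number of unigenes meeting it to 16918, against 10750, and 127 of the 200 unigenes stayed the same. The share of members with pericarp second was then 38% in place of 21.5%. Young stem could no longer be counted as second in that alternative, so these shares are not like for like. A seed FPKM of at least 10 left 484 unigenes meeting the rule. The median log2 difference of 4.82 became 3.92 at a threshold of 20%, 4.01 for the top 400 and 3.58 with a pseudocount of 5. At 20%, the members below 1% of seed made up 21.5% in place of 33.5%, and 126 of the 200 unigenes were shared. TPM kept 195 of the 200. No paired analysis was possible because each tissue has 1 library and no test was run. The depth behind single values is unknown, so the error of the steepest ratios, whose lower value is a trace, cannot be given.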

Other observations

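Young stem also led among the unigenes that failed the rule through 1 tissue alone. Of the 160 unigenes with a seed FPKM of at least 34.3 that reached 10% of seed in exactly 1 tissue, 106 did so in young stem. Pericarp was that tissue for 30, and 22 failed through inflorescence, 2 through young leaf and 0 through mature leaf. In 59 of the 106, young stem lay between 10% and 20% of seed. How often young stem was the highest other tissue over all unigenes at that seed level was not counted. Young stem is also the deepest library of those compared, and its part in these counts was not tested. Unigene139296 had an FPKM of 2695 in seed, 316 in young stem and 46.2 in pericarp, Unigene127642 had 2321 in seed, 286.5 in young stem and 43.6 in young leaf, Unigene073169 had 1572 in seed and 337 in young stem, and Unigene139304 had 1325 in seed and 145 in young stem. These were the 4 most abundant in seed of the 106. Unigene139293, a member with a nearby identifier, had 877 in seed, 31.9 in pericarp and 26.4 in young stem.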
